A study of Mus musculus with 9 samples.

Results

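Low avidity and high avidity CD8+ T cells from progressing tumors were compared gene by gene, in the 6 of the 9 libraries of the study that held them. The low avidity group, TetLowProg, had 3 libraries, numbered as replicates 9, 10 and 12. The high avidity group, TetHighProg, had 3 libraries, numbered as replicates 1, 2 and 5. The 6 libraries were chosen by the group named in the sample labels, and no measured value entered the choice. Both groups were T lymphocytes of wildtype genotype from CT26.WT tumors, a mouse colorectal carcinoma line grown under the skin of BALB/c mice. All mice of both groups had received the PD-1 antibody clone RMP1-14 on days 3, 6 and 9 after implantation, so that neither group was free of antibody. The cells had been sorted as activated (CD44+) CD8+ T cells by a tetramer of the tumor peptide GSW11 on the class I molecule H2-Dd, and low and high tetramer staining separated TetLowProg from TetHighProg. The other 3 libraries, low avidity cells from regressing tumors, entered the model of the spread and no comparison. The labels give neither the mouse nor the tumor of a library, so that any p-value measures only the spread between these libraries. The study took both groups from progressing tumors, 3 in number by its text, so that a library of one group may share its tumor with one of the other, and the tests treat the 6 as independent.

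Avidity is the strength with which the T cell receptors of a cell, acting together, hold the peptide and its presenting molecule. Binding sets off a cascade in which the kinases Lck and Fyn and then Zap70 act on the adaptor Lat and on enzymes such as Prkcq. T cells that meet antigen for long in a tumor can become exhausted, a state marked by inhibitory receptors such as PD-1 (gene Pdcd1), while cells that keep the transcription factor Tcf7 can renew the exhausted pool. The comparison asks how the transcripts of these programs stood in the low avidity cells of tumors that grew despite treatment.

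The 6 libraries held between 22688777 and 36339555 reads counted on genes, written here as counts. They differed far more in how many genes these counts were spread over. At 10 counts or more, TetLowProg libraries 9, 10 and 12 held 8071, 1148 and 6443 genes. TetHighProg libraries 1, 2 and 5 held 1298, 599 and 3181 genes. The groups overlapped, since TetLowProg 10 held fewer genes than TetHighProg 1 and 5. The means were 5221 ± 3620 and 1693 ± 1335 genes (SD, n = 3 each), and the difference of 3528 genes was not larger than the spread (two-sided exact permutation test, p = 0.3, where 0.1 is the smallest p that 3 against 3 libraries allow). Thinning each library to 22688777 counts left 7953, 1139 and 6290 genes in TetLowProg and 1271, 595 and 3181 in TetHighProg. The order of the 6 libraries did not change, and TetLowProg 10 lay between TetHighProg 2 and 1. The 100 most counted genes took 31.6%, 53.6% and 40.8% of the counts in TetLowProg and 57.8%, 69.2% and 45.0% in TetHighProg. The cDNA had been amplified by PCR without molecular identifiers, so that many counts of a gene may be copies of a few molecules, and intervals given here cover counting error only.

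**Figure D1:**
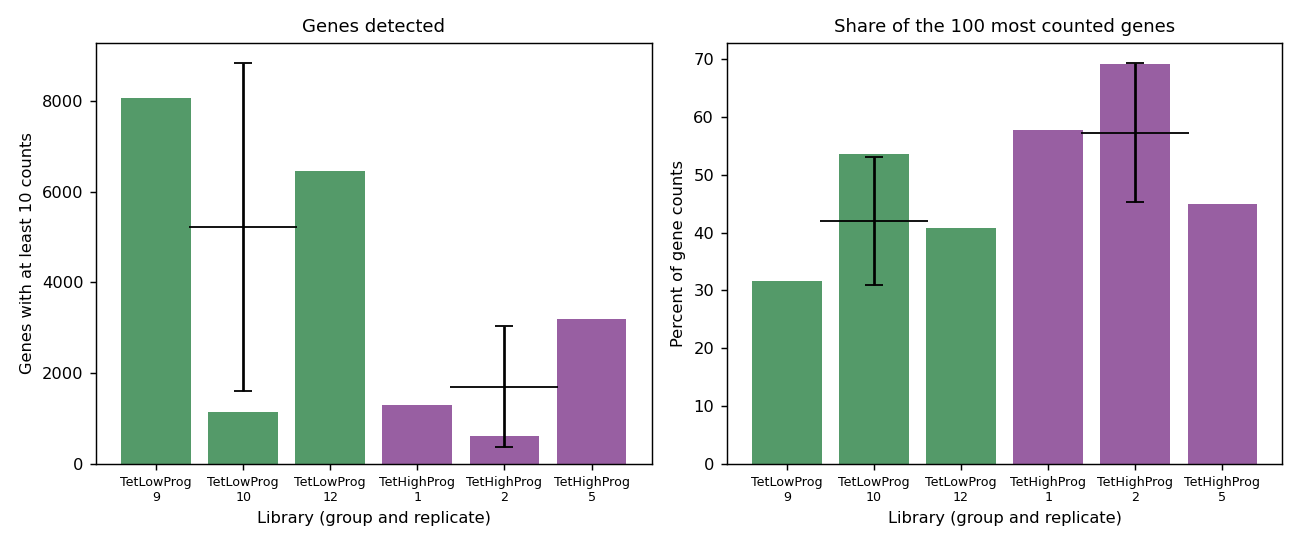
Genes with at least 10 counts (left) and the percent of gene counts taken by the 100 most counted genes (right) in each library, as bars, with the group mean and SD in black (n = 3 each). TetLowProg 10, with 1148 genes, sits with TetHighProg 1 and 2, while TetLowProg 9 and 12 stand above all others.

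Genes were tested with edgeR's quasi-likelihood test, and 5813 genes passed its filter on low counts. A call asked for an adjusted p below 0.05 together with a log2 fold change beyond 2 in either direction. No gene met it (0.0% of genes tested), and the smallest adjusted p was 0.193. At an unadjusted p under 0.05 stood 1443 genes with higher values in TetLowProg (24.8%) and 32 with lower values (0.55%). The first number depended on the libraries in the fit. With edgeR on the 6 libraries alone it was 125 of 2805 genes tested, with 7 lower. In the 3-group fit it was 105, 134 and 283 without TetHighProg 1, 2 and 5, 160 and 126 without TetLowProg 9 and 12, and 2663 without TetLowProg 10, so that the shares of gene lists below are read only against the share of all genes in the same fit. The median log2 fold change over all genes tested was 4.27 toward TetLowProg, and 73.5% of genes had a positive value. Values of single genes and lists are therefore read against that median. As a log2 ratio of pooled CPM, with a group that had no count set at its limit of 3 counts, the median was 5.18. The median fitted log2 fold change was 1.22 in place of 4.27 with a model term for libraries with many or few genes, in which 345 genes were higher and 44 lower at an unadjusted p under 0.05, again with none called, and 0.76 with edgeR on the 6 libraries alone. DESeq2, fitted to these 6 libraries alone, called 1948 genes higher (26.1%) and 6 lower, none of the last being on a list described here. On all 9 libraries DESeq2 called 20.2% of its genes higher with default and 7.07% with poscounts size factors, and limma-voom called 49.6%. The count of calls therefore depended on the tool, and values below are given per library.

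Pooled over the libraries of a group, more genes were found in TetLowProg alone than in TetHighProg alone. Of the genes with 10 counts or more in at least 1 library, 3214 were found in both groups, 6279 in TetLowProg alone and 503 in TetHighProg alone. In all 3 libraries of TetLowProg and none of TetHighProg stood 161 genes, and the reverse held for 0 genes. In exactly 2 libraries of TetLowProg and none of TetHighProg stood 2461 genes, against 9 genes in the reverse. This excess was not shared by every library of TetLowProg. TetLowProg 10 held 1148 genes, fewer than TetHighProg 1 with 1298 and TetHighProg 5 with 3181. Most of the 6279 genes in TetLowProg alone therefore came from the other libraries of that group. The genes of the sparse libraries were mostly a subset of those of the richest one. Of the 599 genes of TetHighProg 2, 90.0% were also in TetLowProg 9, and of the 1148 genes of TetLowProg 10, 89.7% were. TetLowProg 10 shared 546 genes with TetHighProg 1 and 308 with TetHighProg 2. In a bulk sample, fewer cells holding a transcript and less of it in each cell cannot be told apart.

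A core of 239 genes had 10 counts or more in all 6 libraries and took 25.1% of the counts in TetLowProg 9 and 58.8% in TetHighProg 2, the extremes. Its median log2 fold change was -1.13, against 4.27 for all genes tested. Among the most even of the core was Pfn1, which encodes the actin-binding protein profilin, with 77769, 125450 and 218456 counts in TetLowProg 9, 10 and 12 and 221340, 69849 and 145564 in TetHighProg 1, 2 and 5. Slx1b, Arhgdib, Son and the mitochondrial transcripts mt-Rnr2, mt-Nd2 and mt-Nd4 were also among the 8 most even genes. For Pfn1 the groups overlapped. Actb, the cytoskeletal actin, had 402380, 258524 and 150678 counts in TetLowProg and 1842795, 673451 and 235409 in TetHighProg (log2 fold change -2.36, SE 1.39, unadjusted p = 0.090 by edgeR). The nuclear RNA Malat1 had 110460, 1450599 and 426668 counts against 2089912, 1778008 and 807983 (log2 fold change -1.59, SE 1.08, unadjusted p = 0.141 by edgeR). Both were among the 3 most counted genes of several libraries, and both overlapped between the groups. In TetLowProg 9 the most counted gene, ENSMUSG00000098178, took 13.0% of the library with 4711912 counts, while the other 5 libraries had 1980 to 26666. This identifier was not matched to a symbol.

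A stricter view asked that all libraries of one group lie above all of the other in CPM, each count being scaled to the gene counts of its library, with 10 counts or more in every library of the higher group. By this measure 249 genes were higher in TetLowProg (4.28% of genes tested, and 25.9% of the 961 genes with 10 counts in all 3 TetLowProg libraries). Another 28 were higher in TetHighProg (0.482% of genes tested, and 8.89% of the 315 genes with 10 counts in all 3 TetHighProg libraries). Of the 249, 98 had no count in any TetHighProg library and 161 had fewer than 10 in each. TetLowProg 10 gave the highest CPM for 138 of the 249, TetLowProg 9 for 80 and TetLowProg 12 for 31. None of the 28 genes lower in TetLowProg was absent there, and 23 had 10 counts or more in every TetLowProg library. DESeq2 on the 6 libraries called 160 of the 249 and none of the 28. Leaving out a library can only keep or raise these numbers. Without TetLowProg 10, they were 3137 and 85, without TetHighProg 5 they were 484 and 78, and without TetHighProg 2 they were 269 and 179. Without TetLowProg 9 or 12 or TetHighProg 1, they were 309 and 50, 334 and 61, and 301 and 87.

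Of the 12 named genes among the 249, 4 have known roles in lymphocytes and are given first, though others had smaller p-values. Ctsw (chr19:5515071-5518535 on GRCm39) encodes cathepsin W, a protease of cytotoxic lymphocytes. It had 37471, 52422 and 4223 counts in TetLowProg 9, 10 and 12 and 0 in each TetHighProg library. Coro1a (chr7:126298942-126307022), which encodes the actin regulator coronin 1A needed for T cell migration and survival, had 83558, 15025 and 13121 counts against 0, 0 and 0. Both genes were thus present in every low avidity library and in no high avidity library. Measured against a limit of 3 counts over the TetHighProg group, Ctsw was at least 27472-fold and Coro1a at least 32605-fold higher in pooled CPM, with an adjusted p of 0.193 by edgeR for both. Stat3 (chr11:100775924-100830450), the transcription factor downstream of interleukin-6 family and interleukin-10 receptors, had 17511, 24144 and 18256 counts against 0, 0 and 0. Slfn1, a Schlafen gene linked to T cell quiescence, had 6723, 44711 and 9495 counts against 0, 0 and 0. Neither gene had a count in TetHighProg.

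The remaining genes of the 12 named, those with a symbol and the smallest p among the 249, belonged to other programs. Top2b, the topoisomerase that relaxes DNA in cells that do not divide, had 10330, 6384 and 6473 counts in TetLowProg and 1, 0 and 0 in TetHighProg. Hsph1, a large heat shock chaperone, had 7435, 82685 and 65 counts against 0, 1 and 0. Ppp2r1b, a scaffold subunit of protein phosphatase 2A, had 3088, 77425 and 5476 counts against 0, 0 and 0. The spread within TetLowProg was wide for Hsph1 and Ppp2r1b, with TetLowProg 10 far above the others, and narrow for Top2b. Idh3g, a subunit of the isocitrate dehydrogenase of the citric acid cycle, had 5078, 46708 and 2194 counts against none. Fbxo3, Gmcl1, Yaf2 and Noc4l also had no count in TetHighProg and were highest in TetLowProg 10, with 50565, 65834, 60321 and 46776 counts there and 340 to 12753 in the other low avidity libraries. The 12 genes had unadjusted p-values of 0.00147 to 0.00504 by edgeR and the same adjusted p of 0.193. DESeq2 on the 6 libraries called 8 of the 12.

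Further members of the 249 were picked after their values had been seen, for their roles in T cells. Fyn, one of the kinases that start T cell receptor signaling, had 7885, 905 and 2133 counts in TetLowProg against 0, 0 and 0 (at least 3188-fold higher in pooled CPM, unadjusted p = 0.0396 by edgeR). Ccr7, the receptor that guides naive and memory T cells to lymph nodes, had 63999, 38413 and 46920 counts against 0, 0 and 511 (256-fold higher in pooled CPM, log2 fold change 7.73, SE 3.86, unadjusted p = 0.0453 by edgeR). Lef1, a transcription factor related to Tcf7, had 18665, 9688 and 6917 counts against 0, 0 and 623 (49.6-fold, log2 fold change 5.30, SE 4.60, unadjusted p = 0.249 by edgeR). For Ccr7 the 3 low avidity libraries lay close together, and the counts of TetHighProg came from replicate 5, the library of that group with the most genes. Prkcq, which carries the receptor signal to NF-kB, had 19989, 505 and 9049 counts against 0, 0 and 87. The interleukin-4 receptor Il4ra had 5193, 9037 and 3850 counts, the death-signaling kinase Ripk3 4270, 7051 and 1093, and the apoptosis effector Bax 2694, 4895 and 5645, all against 0, 0 and 0. Bcl11b, a factor that maintains T cell identity, had 18220, 28330 and 4985 counts against 4637, 0 and 1819.

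**Figure D2:**
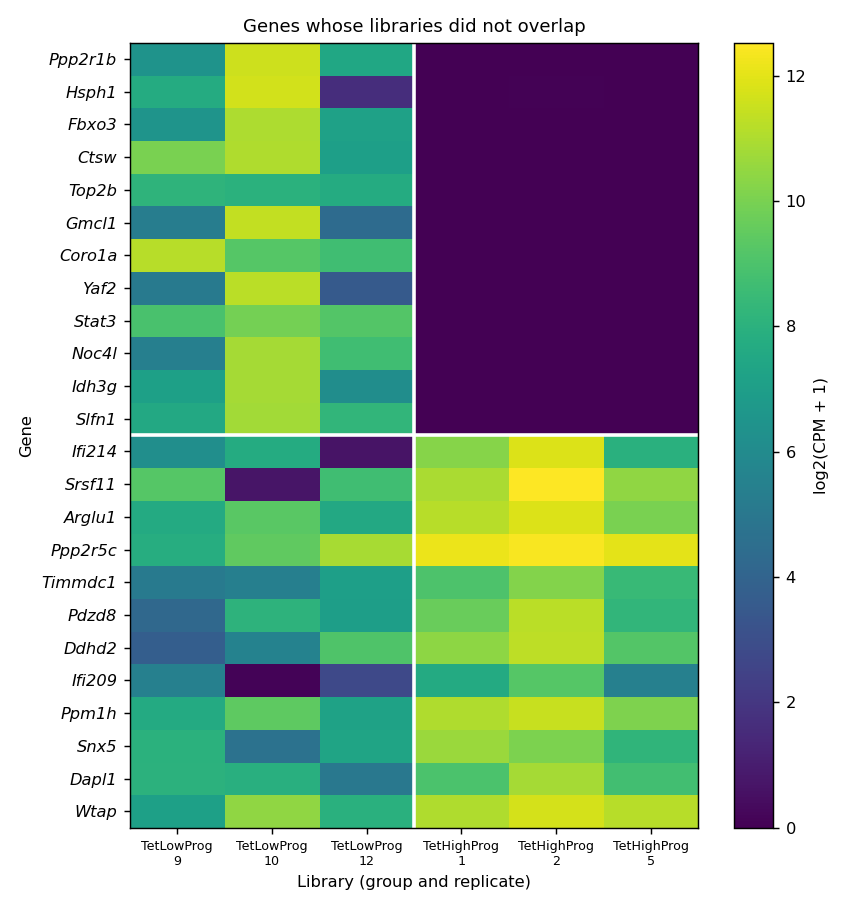
Log2(CPM + 1) of 24 genes whose libraries did not overlap, the 12 higher in TetLowProg above the white line and the 12 lower below it, each ordered by edgeR p. The upper genes are at or near 0 in all 3 TetHighProg libraries, whereas the lower genes are present in both groups.

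The genes lower in TetLowProg differed in kind, since they were measured in both groups and none had an unadjusted p under 0.05. Ifi214 and Ifi209 belong to the interferon-inducible Ifi200 family, which lies in a cluster on chromosome 1. Ifi214 (chr1:173347283-173363523) had 2623, 5316 and 19 counts in TetLowProg and 40898, 94059 and 5505 in TetHighProg (20.2-fold lower in pooled CPM, log2 fold change -4.96, SE 3.14, unadjusted p = 0.115 by edgeR). Ifi209 (chr1:173458380-173475494) had 1549, 2 and 186 counts against 6640, 15058 and 971 (14.9-fold lower, log2 fold change -5.26, SE 4.57, unadjusted p = 0.250). In CPM the groups lay close at their edges for Ifi209, at 42.6 in TetLowProg 9 and 42.8 in TetHighProg 5. The family holds near-identical copies and reads at several places were not counted, so that the split of counts between its members is uncertain. The promoters of both genes are shown because the pair lay on the same side in all 6 libraries. They are from RefSeq on the build GRCm38.p6, from 250 bases before to 50 after the start of the gene and on the strand of the gene, at chr1:173535908-173536207 (minus strand) for Ifi214 and chr1:173630609-173630908 (plus strand) for Ifi209. Capitals mark the one match to the core of the interferon-stimulated response element, 2 copies of GAAA with any 2 bases between them, searched on both strands.
Ifi214: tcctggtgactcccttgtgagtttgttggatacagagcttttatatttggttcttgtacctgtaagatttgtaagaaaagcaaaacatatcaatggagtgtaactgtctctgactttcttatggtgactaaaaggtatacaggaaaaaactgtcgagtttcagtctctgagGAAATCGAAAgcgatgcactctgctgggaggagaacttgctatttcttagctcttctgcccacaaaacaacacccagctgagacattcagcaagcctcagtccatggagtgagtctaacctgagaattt
Ifi209: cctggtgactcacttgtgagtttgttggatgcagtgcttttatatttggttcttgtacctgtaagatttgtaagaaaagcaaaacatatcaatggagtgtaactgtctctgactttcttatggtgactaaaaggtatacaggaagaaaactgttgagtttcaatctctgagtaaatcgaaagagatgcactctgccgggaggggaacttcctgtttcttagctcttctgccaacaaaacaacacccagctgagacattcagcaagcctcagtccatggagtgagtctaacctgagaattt
The promoters were identical at 287 of 301 aligned columns (95.3%). The match, 79 bases before the start in Ifi214, was not found in the window of Ifi209, and 3.44% of 32851 promoters of the same length held one.

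Of the other genes lower in TetLowProg, Srsf11, a splicing factor, had 21423, 16 and 12859 counts in TetLowProg and 65454, 149371 and 32081 in TetHighProg. Arglu1 (chr8:8712907-8740546), which modulates splicing and transcription, had 7391, 16047 and 5831 counts against 77059, 96041 and 23208 (7.66-fold lower in pooled CPM, log2 fold change -3.39, SE 2.68, unadjusted p = 0.207 by edgeR). Wtap, a subunit of the complex that methylates adenosine in messenger RNA, had 4968, 35029 and 7726 counts against 70994, 84038 and 53309. For Arglu1 and Wtap every library of both groups held at least 4968 counts. The part of the number of genes per library in these values was not tested. The splicing kinase Clk1 and the RNA-binding Celf2 were also among the 28. Splicing genes stood on the other side too, such as Snrpd1, a core protein of the spliceosome, with 2414, 17576 and 186 counts against 0, 0 and 0, and Prpf6, another spliceosome component, with 13889, 3239 and 9299 against 0, 0 and 0. Ppp2r5c, a regulatory subunit of protein phosphatase 2A, had 8112, 17941 and 60465 counts in TetLowProg and 155198, 138536 and 93322 in TetHighProg. It thus lay opposite to Ppp2r1b, the scaffold subunit above. Dapl1, which is expressed in naive and memory T cells, had 9609, 5892 and 986 counts against 16976, 47100 and 9656. Timmdc1, Pdzd8, Ddhd2, Ppm1h and Snx5, with roles in mitochondrial complex I assembly, membrane contacts, lipid cleavage, dephosphorylation and endosomal sorting, had pooled CPM 6.53-fold to 9.85-fold lower in TetLowProg. The log2 fold changes of the 28 genes ran from -5.26 to -1.72.

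The markers of the sort were uneven between libraries. Cd8b1, the beta chain of the CD8 co-receptor, had 39376, 75010 and 16482 counts in TetLowProg and 79539, 78155 and 45442 in TetHighProg, and was one of the core genes. Cd8a, the alpha chain, had 24040, 0 and 3755 counts against 0, 0 and 123. Cd3e, a signaling chain of the receptor complex, had 14452, 11486 and 1394 counts against 3828, 6 and 1109. Cd8b1 was thus found in every library, while Cd8a was at 0 in the 3 sparse ones, in which a count of 0 allows up to 3 counts. Of the 17 CD8 T cell identity genes, TetLowProg 9, 10 and 12 held 17, 6 and 17 at 10 counts or more. TetHighProg 1, 2 and 5 held 9, 4 and 15. The shares were 100%, 35.3% and 100% in TetLowProg, beside 89.5%, 18.8% and 88.0% of all genes tested. In TetHighProg they were 52.9%, 23.5% and 88.2%, beside 20.7%, 9.67% and 46.4%. Cd44, the activation marker of the sort, had 1039, 0 and 697 counts against 0, 0 and 287. Trac, the constant region of the receptor alpha chain, had 19456, 19730 and 13224 counts against 27711, 0 and 24823. All of these overlapped between the groups, and TetHighProg 2 held no Trac. The log2 fold changes of Cd8b1, Cd8a, Cd3e and Cd44 were -1.20, 6.81, 2.21 and 1.88 with SEs of 2.43, 4.24, 4.21 and 4.29, and their unadjusted p-values were 0.621, 0.108, 0.599 and 0.661 by edgeR.

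Genes of exhaustion differed from one another in where they were found. Pdcd1 (chr1:93966027-93980312) had 8322, 0 and 9258 counts in TetLowProg and 0, 0 and 0 in TetHighProg, so that its pooled CPM was at least 5131-fold higher in TetLowProg. It did not pass the filter and was not tested. Entpd1, which encodes CD39, and Havcr2, which encodes TIM-3 and was picked after its values were seen, had no count in any of the 6 libraries, and Eomes had 1, 0 and 0 counts against 2, 0 and 0. Tox, a factor that drives exhaustion and was likewise picked, was found in all 6, with 1491, 47984 and 4129 counts against 13349, 2704 and 9663 (log2 fold change 1.08, SE 3.28, unadjusted p = 0.742 by edgeR). The sign of the Tox value rested on TetLowProg 10, and without it the log2 fold change was -2.12. The whole list of inhibitory receptors and exhaustion genes had 14, 2 and 10 of 19 members with 10 counts in the TetLowProg libraries and 2, 2 and 6 in the TetHighProg libraries. These were 73.7%, 10.5% and 52.6% of the list in TetLowProg, beside 89.5%, 18.8% and 88.0% of all genes tested, and 10.5%, 10.5% and 31.6% in TetHighProg, beside 20.7%, 9.67% and 46.4%. Of the 19 members 10 had passed the filter on low counts, as all genes tested had, so that the shares are not on the same base. The activation-induced nuclear receptor Nr4a2 was found in all 3 TetLowProg libraries and in 2 of TetHighProg, with 6288, 7061 and 3519 counts against 0, 52109 and 10118, and the related Nr4a3 had 5581, 0 and 697 against 0, 2 and 8385. Nr4a1, the third of these, had 25540, 4 and 20123 counts against 1167, 1 and 0. The log2 fold changes of Nr4a1, Nr4a2 and Nr4a3 were 4.87, -2.99 and -1.38. Of the 10 members of the list tested, 1 was higher at an unadjusted p under 0.05, beside 24.8% of all genes tested. This was Ctla4, another inhibitory receptor, with 8764, 0 and 716 counts against 0, 0 and 0.

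Of the progenitor and memory genes 100%, 33.3% and 88.9% were found in the TetLowProg libraries and 22.2%, 5.56% and 55.6% in the TetHighProg libraries, beside 89.5%, 18.8% and 88.0% against 20.7%, 9.67% and 46.4% of all genes tested. The list shares are over all 18 members, of which 16 had passed the filter on low counts. The interleukin-7 receptor Il7r had 17206, 7 and 5246 counts against 24042, 0 and 22459. Tcf7 had 18867, 27422 and 29432 counts in TetLowProg and 2466, 1 and 38620 in TetHighProg (log2 fold change 0.62, SE 3.02, unadjusted p = 0.838 by edgeR). It was even among the low avidity libraries and ran from 1 count to the highest value of all in the high avidity group. Cxcr5, Bach2 and Bcl6, marks of progenitor exhausted cells, had 0 counts in every TetHighProg library and in TetLowProg 10. Their counts in TetLowProg 9 were 23, 1089 and 1373 and in TetLowProg 12 they were 10157, 678 and 132. TetLowProg 12 also held B cell markers (0.297% of its counts), and B cells express Cxcr5 and Bach2 too. The part of such cells in these values was not tested. Satb1, a chromatin organizer of T cells, had 23875, 15090 and 60552 counts against 24625, 3997 and 29792. Of 16 members of the list tested, 4 were higher and 0 lower at an unadjusted p under 0.05, with a median log2 fold change of 6.17, beside 24.8% and a median of 4.27 over all genes tested.

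Cytotoxic genes were split between 2 patterns. Nkg7, a granule protein of killer cells, was a core gene with 18238, 63210 and 28550 counts in TetLowProg and 137017, 93821 and 22811 in TetHighProg. The granzyme gene Gzmb had 3063, 0 and 1129 counts against 0, 0 and 0 (at least 1224-fold higher in pooled CPM, unadjusted p = 0.0526 by edgeR). Ifng, the gene of interferon gamma, had 11244, 0 and 0 counts against 0, 0 and 1, and Tbx21, the gene of T-bet, had 4499, 0 and 0 against 0, 0 and 0. Both were therefore values of TetLowProg 9. The ratio for Ifng in pooled CPM was 9846, with a 95% counting interval of 1767 to 388934. Fasl and Ccl5, a death ligand and a chemokine, were found in TetLowProg 9 and 12 and had no count elsewhere, with 1421 and 3396 counts for Fasl and 5467 and 255 for Ccl5. Of the 22 genes of the list 15, 3 and 11 were found in the TetLowProg libraries and 2, 1 and 3 in the TetHighProg libraries. The 8 tested had a median log2 fold change of 8.79, 3 of them were higher and 0 lower at an unadjusted p under 0.05, beside 24.8% and 0.55% of all genes tested. Ctsw, 1 of 8, did not overlap, beside 4.28% of all genes tested and 25.9% of genes with 10 counts in all 3 TetLowProg libraries.

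**Figure D3:**
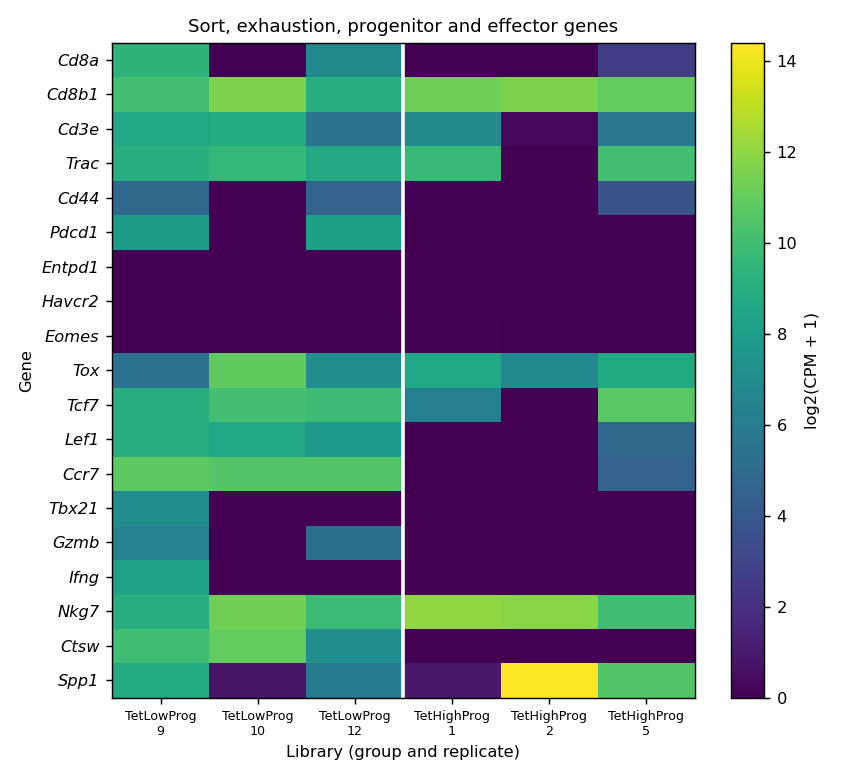
Log2(CPM + 1) of genes of the sort, exhaustion, the progenitor state and effector function in each library. Cd8b1, Tox and Nkg7 are present in all 6 libraries, Entpd1 and Havcr2 in none, and Pdcd1 in TetLowProg 9 and 12 alone.

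No gene of T cell receptor signaling was called by edgeR. Of 27 members tested, 12 were higher and 0 lower at an unadjusted p under 0.05, beside 24.8% and 0.55% of all genes tested, and the median log2 fold change was 7.56. Of its 30 members 28, 8 and 27 were found in TetLowProg 9, 10 and 12 and 2, 2 and 13 in TetHighProg 1, 2 and 5. Members of the cascade did not move as one. Lck had 66200, 2 and 22199 counts in TetLowProg and 0, 64706 and 25167 in TetHighProg, and Lat had 40039, 61000 and 19343 against 0, 44665 and 15765. Lck and Lat therefore overlapped between the groups. Zap70 had 6991, 2 and 18 counts against 0, 0 and 0. Vav1, an exchange factor that links the receptor to the cytoskeleton, had 16183, 2 and 148 counts against none. Nfatc3, a calcium-dependent transcription factor, had 3393, 0 and 79 counts against none. The values of these 3 came mainly from TetLowProg 9. Fyn, Prkcq, Sos1 and Dgka were the members that did not overlap, 4 of 27 beside 4.28% of all genes tested. Of genes with 10 counts in all 3 TetLowProg libraries, which that measure asks for, the share was 25.9%. Sos1, an activator of Ras, had 562, 613 and 1169 counts against 0, 0 and 0.

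Of 21 migration and adhesion genes tested, 7 were higher and 0 lower at an unadjusted p under 0.05, beside 24.8% and 0.55% of all genes tested, with a median log2 fold change of 6.64. Coro1a, Cxcr4 and Arpc2 did not overlap, 3 of 21 beside 4.28% of all genes tested. The share was 25.9% of genes with 10 counts in all 3 TetLowProg libraries. Cxcr6, a chemokine receptor of tissue-resident T cells, had 4617, 0 and 12869 counts and Dock2, an activator of Rac, 5736, 0 and 13045, both against none. Cxcr4, the receptor for CXCL12, had 6004, 581 and 2709 counts in TetLowProg and 1, 0 and 258 in TetHighProg. The summed share of the 24 genes was 1.27%, 0.126% and 0.432% of the counts in TetLowProg and 0.0027%, 0.0492% and 0.166% in TetHighProg. TetLowProg 10 thus lay below TetHighProg 5 in the sum.

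Oxidative phosphorylation was compared in its nuclear and its mitochondrial part. Of the 73 nuclear genes 72, 12 and 63 were found in the TetLowProg libraries and 19, 7 and 31 in the TetHighProg libraries. Of 66 tested, 16 were higher and 0 lower at an unadjusted p under 0.05, close to the 24.8% of all genes, and the median log2 fold change of 2.12 was below that of all genes tested. Ndufa2, a subunit of complex I, had 3365, 13898 and 17498 counts in TetLowProg against 0, 0 and 0 (at least 10146-fold higher in pooled CPM, unadjusted p = 0.0122 by edgeR), and did not overlap. Uqcrc1, a core subunit of complex III, overlapped between the groups, with 6694, 0 and 61406 counts against 53211, 174776 and 32020. Of 13 mitochondrially encoded genes, 5 had no count in any of the 6 libraries. At 10 counts or more, 7 genes were found in TetLowProg 9 and 12 and in TetHighProg 5, and 6 in the other 3 libraries. Their median log2 fold change was 0.10 and none of 7 tested had an unadjusted p under 0.05. They took 1.18%, 0.999% and 5.38% of the counts in TetLowProg and 4.81%, 2.05% and 2.47% in TetHighProg.

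Of 21 autophagy genes tested, 5 were higher and 0 lower at an unadjusted p under 0.05, near the 24.8% and 0.55% of all genes tested, with a median log2 fold change of 6.17. Becn1, which starts the autophagosome, had 5516, 0 and 17219 counts against 0, 0 and 0, and Tax1bp1, a cargo receptor, had 26342, 31765 and 35714 against 56883, 1 and 28541. Of 18 DNA damage and apoptosis genes tested, 3 were higher and 0 lower by the same measure, and the median was 0.65, with 9 positive and 9 negative values. Bax was one of those higher. Ppp1r10, a phosphatase subunit linked to the DNA damage response, had 11098, 1 and 713 counts against 22317, 73168 and 657, with the groups overlapping.

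Protein turnover and synthesis were covered unevenly. All 31 proteasome genes were found in TetLowProg 9 and 29 in TetLowProg 12, but 3 in TetLowProg 10, fewer than the 9, 5 and 16 of the TetHighProg libraries. Of 28 tested, 6 were higher and 0 lower at an unadjusted p under 0.05, near the 24.8% and 0.55% of all genes tested, and all overlapped. Psmb2, a proteasome core subunit, had 3765, 1 and 16581 counts against 37476, 135291 and 11478. Ribosomal protein genes had 5 of 76 higher and 0 lower at an unadjusted p under 0.05, below the 24.8% of all genes. Higher without overlap were 11 of 76, beside 4.28% of all genes tested. That measure asks for 10 counts in every TetLowProg library, and TetLowProg 10 held 46.1% of these genes beside 18.8% of all genes tested. Of all genes with 10 counts in all 3 TetLowProg libraries, 25.9% were higher without overlap. Rps25 had 24426, 28971 and 9957 counts against 47107, 38915 and 24834. These paralog-rich genes share sequence with many pseudogenes, so that their counts are uncertain. Their sum was 4.82% of the counts in TetLowProg 9 and 0.631% to 0.897% in the other 5 libraries. Ubiquitin, ER and vesicle transport genes had 9 of 29 tested higher and 0 lower, beside 24.8% and 0.55%, with a median log2 fold change of 2.39 against 4.27 for all genes tested.

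The other lists are read beside the 24.8% of all genes tested that were higher at an unadjusted p under 0.05. For MHC class I presentation it was 1 of 14 tested, the chaperone Calr, with 20034, 37 and 9023 counts against 0, 1 and 0, while B2m, the light chain of class I molecules, had 195217, 31504 and 45512 against 101591, 204162 and 31400. For the interferon-stimulated list it was 1 of 14, with a median log2 fold change of 0.68, and 5 of the 26 members had no count in any of the 6 libraries. Glycolysis had 2 of 15 and hypoxia response 3 of 9, all higher. Cell cycle and replication had 4 of 16 higher and 0 lower. Mcm4, a subunit of the replicative helicase, picked after its values were seen, had 2503, 479 and 8927 counts in TetLowProg and 111043, 144237 and 3745 in TetHighProg (24.8-fold lower in pooled CPM, log2 fold change -5.31, SE 2.88, unadjusted p = 0.0658 by edgeR). It overlapped through TetLowProg 12 and TetHighProg 5. Mcm6, another subunit of that helicase, had 2644, 0 and 9052 counts against 0, 0 and 0, the opposite side.

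DESeq2 on the 6 libraries, which called 26.1% of its genes higher, called 6 of 10 tested cytotoxic genes, 8 of 14 migration genes, 8 of 15 cell cycle genes, 9 of 18 autophagy genes and 11 of 23 ubiquitin, ER and transport genes. It called 4 of 9 exhaustion genes, 6 of 14 progenitor genes, 8 of 19 receptor signaling genes, 20 of 50 nuclear oxidative phosphorylation genes, 10 of 26 proteasome genes, 4 of 11 hypoxia genes and 5 of 17 DNA damage and apoptosis genes. The shares were lower for ribosomal proteins, at 9 of 59, MHC class I, at 2 of 10, glycolysis, at 2 of 9, CD8 T cell identity, at 1 of 15, interferon-stimulated genes, at 1 of 13, and mitochondrially encoded genes, at 0 of 8. None of these lists had a member called lower. With absent genes at their limit, the median log2 ratios of pooled CPM were 10.36 for cytotoxic, 9.42 for receptor signaling, 8.48 for migration, 7.24 for autophagy, 6.82 for progenitor, 4.78 for exhaustion and 2.61 for nuclear oxidative phosphorylation genes, beside 5.18 for all genes tested.

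**Figure D4:**
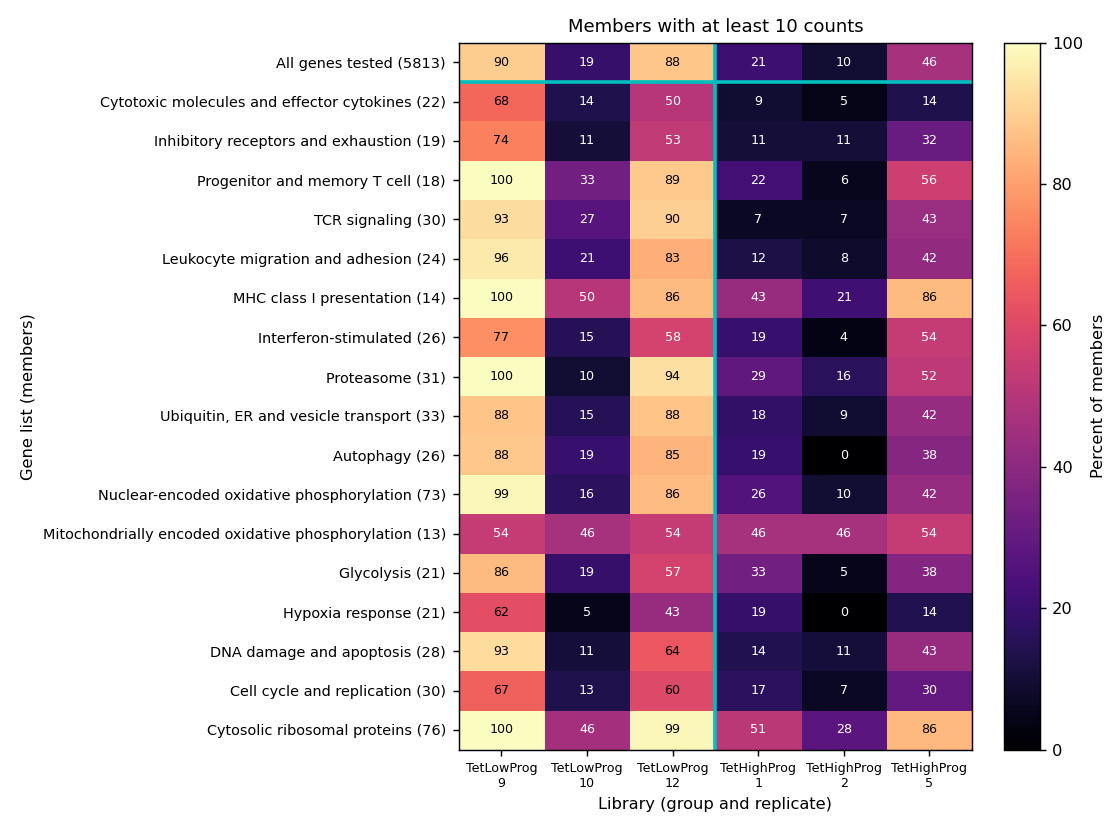
Percent of the members of each gene list with at least 10 counts, by library, with all genes tested in the top row and the number of members in parentheses. Most lists follow the top row, with high shares in TetLowProg 9 and 12 and low ones in TetLowProg 10 and TetHighProg 1 and 2. Mitochondrially encoded genes stay between 46% and 54% in all 6, and 5 of the 13 had no count in any of them.

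Markers of other cells were counted because a sorted sample can carry them. MHC class II genes, which antigen-presenting cells express, took 6.18% of the counts of TetLowProg 12 and 0.0156% to 0.15% in the other 5 libraries. Cd74, the invariant chain of class II, had 1, 3 and 1627251 counts in TetLowProg and 17, 37532 and 12898 in TetHighProg (log2 fold change 4.05, SE 1.54, unadjusted p = 0.00856 by edgeR). Without TetLowProg 12 its log2 fold change was -12.46. H2-Aa had 151, 0 and 125217 counts against 0, 0 and 2, and H2-Eb1 had 895, 0 and 118244 against 0, 0 and 0, with fitted log2 fold changes of 13.70 and 14.05. The B cell list took 0.297% of the counts in TetLowProg 12, 0.029% in TetLowProg 9 and no more than 0.000643% in the other 4. It had 12 of 13 members found in TetLowProg 12, 2 in TetLowProg 9, 1 in TetHighProg 5 and 0 in the others. At an unadjusted p under 0.05 by edgeR, 5 of 11 B cell genes tested were higher and 0 lower. For MHC class II genes it was 7 of 9 higher and 0 lower, beside 24.8% and 0.55% of all genes tested. The B cell receptor gene Cd79b had 22321 counts in TetLowProg 12 and 0 or 1 elsewhere, and Igkc, the kappa light chain, had 38959 there and 0, 1, 0, 0 and 146 in TetLowProg 9 and 10 and TetHighProg 1, 2 and 5. Ighm had 8777 and 9773 counts in TetLowProg 9 and 12 and 0 elsewhere. The part of such cells in the differences of TetLowProg 12 was not tested.

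Macrophage and dendritic cell markers took 0.341% of the counts in TetHighProg 1, above the 0.297% of B cell markers in TetLowProg 12, and at most 0.0626% in the other 5 libraries. Their part in the values of TetHighProg 1 was not tested. The dendritic cell lectin Cd209a, with 62249 counts in TetHighProg 1 and 0 or 1 in the others, made up most of that share. Csf1r, Adgre1 and Cd14 had no count in any of the 6. Lyz2, the lysozyme of myeloid cells, had 0, 0 and 18079 counts in TetLowProg and 51557, 0 and 3744 in TetHighProg, and Zbtb46, a dendritic cell factor, had 6124 counts in TetHighProg 5 and 0 elsewhere. No neutrophil marker reached 10 counts. Cd4 and Foxp3 had at most 2 counts in a library, and Tnfrsf4, an activation receptor of CD4 T cells, had 5839 counts in TetLowProg 12 and 2329 in TetHighProg 5. Il2ra and Ccr8, which regulatory T cells express, had 945 and 525 counts in TetLowProg 12, and the chemokine receptor Ccr4 had 604 in TetLowProg 9. Of the NK cell markers, Fcer1g had 446, 0 and 3154 counts against none, Klre1 had 1646 in TetLowProg 9 and Tyrobp 1193 in TetLowProg 12, both with none in TetHighProg, and Ncr1 and Klrb1c were at 0. The hemoglobin genes Hba-a1, Hba-a2 and Hbb-bs were found in TetLowProg 12 alone, with 565, 495 and 1133 counts. Of tumor and stroma markers, keratins were at 0, Col1a2 had 306, 0 and 27 counts against 12437, 1 and 1906, and the endothelial marker Pecam1 had 3038, 8 and 295 against 501, 8 and 8. The osteopontin gene Spp1, which T cells, myeloid cells and tumor cells can all make, was picked after its values were seen, with 16393, 18 and 1969 counts in TetLowProg and 31, 551907 and 34032 in TetHighProg (log2 fold change -6.80, SE 2.45, unadjusted p = 0.00555 by edgeR). Its groups overlapped, and TetHighProg 2 held most of its counts. CD8 T cell identity genes took 0.518% to 0.84% of the counts in TetLowProg and 0.863% to 1.09% in TetHighProg. The 1.09% was that of TetHighProg 2, where 4 of the 17 were found. Ptprc, Cd8b1 and Thy1 had 147947, 78155 and 49904 counts there. Of 17 tested, 1, the adhesion receptor Cd2, had an unadjusted p under 0.05 by edgeR, with 6015, 0 and 13404 counts against 1, 0 and 0.

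**Figure D5:**
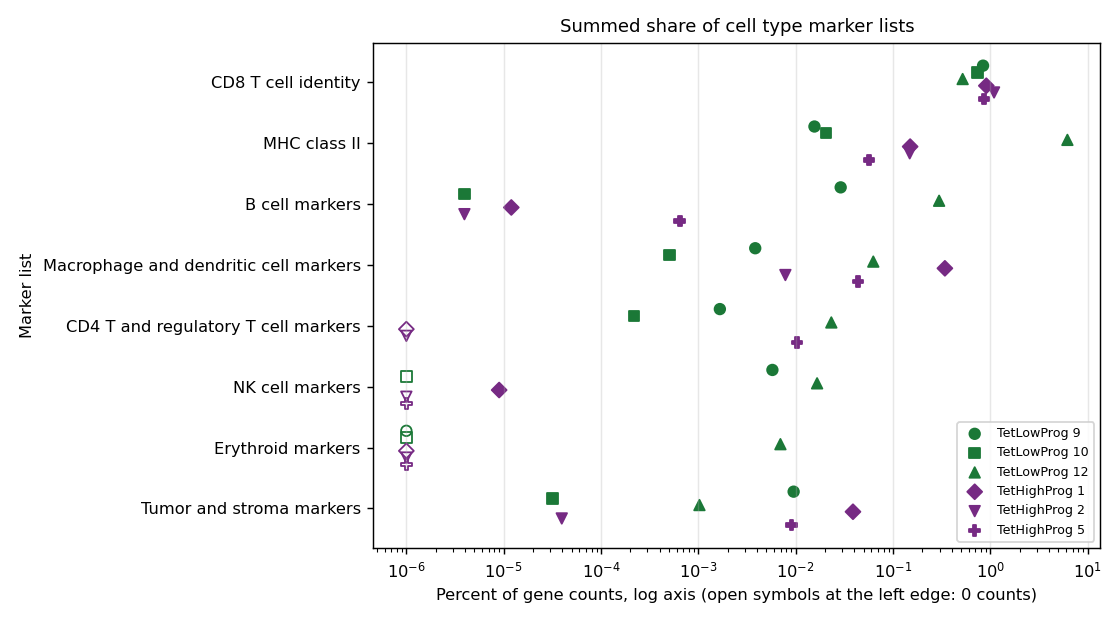
Summed percent of gene counts of each cell type marker list, on a log axis, with low avidity libraries in green and high avidity libraries in purple and open symbols for lists without a count. TetLowProg 12 is highest for MHC class II (6.18%) and B cell markers (0.297%) and TetHighProg 1 for macrophage and dendritic cell markers (0.341%). T cell identity genes sum to between 0.518% and 1.09% in all 6, although 4 of the 17 members were found in TetHighProg 2, the highest.

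Counts on the variable gene segments of the T cell receptor differed between libraries, and they do not give the number of receptors or clones. Trav3-3 led the alpha chain in 5 libraries, with 18.1%, 95.5% and 31.9% of variable alpha counts in TetLowProg 9, 10 and 12 and 60.6% and 36.9% in TetHighProg 1 and 5. TetHighProg 2 had no count on any variable gene of either chain, and TetLowProg 10 had none on the beta chain. In the beta chain, Trbv17 led TetLowProg 9 with 3593 of 22233 counts (16.2%, 95% Clopper-Pearson interval 15.7% to 16.7%) and Trbv13-2 led TetLowProg 12 with 1507 of 4240 (35.5%, 34.1% to 37.0%). Trbv13-2 also led TetHighProg 1, with 9967 of 11566 counts (86.2%, 85.5% to 86.8%), and Trbv13-1 led TetHighProg 5 with 2523 of 2544 (99.2%, 98.7% to 99.5%). Of the beta chain genes with 10 counts or more there were 16 and 6 in TetLowProg 9 and 12 and 2 and 2 in TetHighProg 1 and 5. The 2 low avidity libraries with beta chain counts thus spread them over more genes than the 2 high avidity libraries, a difference that was not tested. These 2 were also the libraries with the most genes of any kind. In the alpha chain 31, 2 and 26 genes had 10 counts or more in TetLowProg and 2, 0 and 14 in TetHighProg, so that the groups overlapped.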

How the data were processed

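RNA from tetramer-sorted T cells was copied and amplified with Smart-seq2 and sequenced after Nextera XT library preparation. The authors deposited raw read counts per gene and library, which they made by alignment to GRCm39 with STAR 2.7.6a. The study's methods name featureCounts, although the columns are laid out as STAR writes them. Which annotation release was used is not given in the sources used here. Reads at several places or on overlapping genes are left out of such counts. The unstranded column was used, since the kit does not mark strand, so that reads of a gene and of an antisense partner cannot be told apart. Of 32976 genes, 28645 were matched to GENCODE M39 for names and coordinates, and 4 summary lines per table were dropped.

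Depth was 36339555, 25141184 and 31501244 counts in TetLowProg 9, 10 and 12 and 33409472, 25323802 and 22688777 in TetHighProg 1, 2 and 5. Genes were tested with edgeR 4.0.16 (TMM, default filter, quasi-likelihood, two-sided, prior count 2) in R 4.3.3, with all 9 libraries in a model of 3 groups, and p-values were adjusted over all genes tested by Benjamini-Hochberg. The filter keeps genes with counts in enough libraries, so that a gene can pass through its higher group alone. Where a group had no count, its limit was 3 counts over the group, and ratios with 1 to 3 counts carry 95% counting intervals. Alternatives used limma 3.58.1 and DESeq2 1.42.0, and the tests were tested on simulated data. Single values were compared by exact permutation with SciPy 1.17.1, and figures were drawn with matplotlib 3.10.9.

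The comparison, the 26 gene lists and the rule for named genes were chosen with earlier results of these data known. Of the 618 list symbols, 3 had no row. Named are the genes the study names or sorts on, the 3 most counted genes of each library, up to 12 genes per direction with the smallest p among those whose libraries did not overlap, up to 4 members per list, the 8 most even genes of those found in all 6 libraries, and the leading variable gene of each receptor chain. Genes without a symbol, gene models and pseudogenes were left out of the parts on overlap and evenness. Genes outside this rule were named after their values were seen. The counts of genes that did not overlap without each library, and with TMM or TMMwsp sizes, were also chosen after seeing the data. Some genes that the rule names are not reported here.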

Additional observations from a re-analysis of the deposited data

How the results depend on the processing

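No paired analysis was possible because the groups share no replicate number, and the labels do not say which libraries came from the same tumor, although the groups may share their tumors. edgeR called 0 genes, and again 0 with no filter, a strict filter, TMMwsp, mitochondrial genes excluded, any size of change allowed, a term for libraries with many or few genes, and each library left out. It called 1 gene with library sizes in place of TMM and 1 on the 2 groups alone, ENSMUSG00000098178 both times. limma-voom with quality weights called 2901, DESeq2 2357 with default and 853 with poscounts size factors, and 1954 on the 2 groups. The cause was not tested. The difference in genes detected stayed positive, from 3059 to 3652 under other minimums and thinning and from 2103 to 5564 without single libraries. Non-overlap counts were 432 higher and 40 lower at 1 count and 204 and 28 at 100 counts, and, as leaving out a library can only keep or raise them, ranged without single libraries from 269 to 3137 higher and from 50 to 179 lower. With TMM and TMMwsp sizes they were 242 and 239 higher and 39 and 39 lower. The median log2 fold change ran from 1.73 to 6.85 without single libraries, was 0.18 with no filter, 1.05 with a strict filter, 0.76 with edgeR on the 2 groups, 7.14 by limma-voom, 2.31 with DESeq2 on the 2 groups and 0 with either DESeq2 fit on 9 libraries. Of 723 refitted values of 45 genes, 719 kept their sign. The log2 fold change of Tox was -1.77 by limma-voom, and without single libraries ran from -2.12 (TetLowProg 10) to 1.79. That of Cd74 was -10.66 with the term for many or few genes, and ran from -12.46 (TetLowProg 12) to 6.17. With 3 libraries a group and most genes at 0 in several, a gene not found is not shown to be absent from the cells.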
